A study of Mus musculus with 8 samples.

Results

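The genes described here encode chains of the receptors of the common gamma chain cytokines, a family made up of IL-2, IL-4, IL-7, IL-9, IL-15 and IL-21. The 7 members, Il2ra, Il2rb, Il2rg, Il7r, Il15ra, Il4ra and Il21r, were taken by symbol from the table of normalized counts. All 7 were among its 52459 genes, and all 7 were among the 15419 genes with a mean at or above a floor of 10 normalized counts, which entered the tests. RNA of mouse Treg cells was sequenced to ask which transcripts depend on store-operated calcium entry, the influx that STIM1 and STIM2 trigger when the calcium stores of a cell are emptied. The 8 libraries form 4 groups of 2, with WT and Stim1/2-deficient Treg cells either left unstimulated or kept for 16 h on plates coated with anti-CD3/CD28 at 1 µg/ml.

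Both genotypes were sorted as CD4+CD25hi cells from spleen and lymph nodes of the same kind of mouse, female heterozygous Foxp3-YFPcre animals of the C57BL/6 strain whose Stim1 and Stim2 alleles are floxed. Cells without YFPcre served as WT, and YFPcre+ cells were labelled as DKO, with floxed alleles of Stim1 (written fl/f) and Stim2 (written fl/fll) beside Foxp3-YFPcre. The Foxp3 promoter drives the Cre and lies on the X chromosome, so each animal held both kinds of Treg cell. Genotype therefore cannot be told apart from expression of the Foxp3-YFPcre allele. Only the sort of DKO-labelled cells required a signal driven by the Foxp3 promoter, and the part of this difference in the receptor values was not tested. Every sample was a pool of several mice, so that p-values measure the spread between pools. For limma that spread was taken over the 2 pools of all 4 groups together, not only of those compared, and moderated across genes. By the lane numbers in the labels, unstimulated libraries ran on 1 lane and stimulated libraries on another, and stimulation and lane therefore cannot be told apart. CD25 is the protein made from Il2ra, so its transcript was measured in cells that had been selected on its protein.

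A common gamma chain receptor is assembled from the shared gamma chain and 1 or more chains that are specific for a cytokine. Ligand binding activates JAK1 on the specific chain and JAK3 on the gamma chain, which phosphorylate STAT proteins, mainly STAT5 for IL-2, IL-7 and IL-15, STAT6 for IL-4 and STAT3 for IL-21. Treg cells make little IL-2 of their own and depend on IL-2 from other cells, which they capture with a high-affinity receptor of alpha, beta and gamma chain. High CD25 and low CD127, the product of Il7r, are the usual surface marks by which Treg cells are told from conventional T cells.

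Libraries held 11851853 to 16306540 reads on genes, and 1 read was worth 0.759 to 1.48 normalized counts. All 6 T cell and Treg markers tested (Cd3e, Cd4, Foxp3, Ctla4, Ikzf2, Tnfrsf18) were above 3 reads in every library. Their summed levels were 76728 to 82208 normalized counts in unstimulated WT and 33569 to 41948 in unstimulated DKO-labelled libraries. Neither deleted gene was called between genotypes. Stim1 had a log2 fold change of 0.44 in unstimulated cells (adjusted p = 0.236 by limma) and -0.15 in stimulated cells (adjusted p = 0.807 by limma). A count for a whole gene does not show whether its floxed exons are missing. By RT-PCR, the paper reports loss of Stim1 and Stim2 expression in Treg cells of male mice with these alleles. It also reports that YFP+ Treg cells of heterozygous females lacked store-operated calcium entry. Because the deletion cannot be read from the counts used here, the Stim1/2-deficient libraries are named by their label, DKO. Every direction below is that of DKO-labelled libraries. Of the T cell and Treg markers 3 (Ctla4, Ikzf2, Tnfrsf18) were called lower in unstimulated DKO-labelled cells, as were 3.35% of all tested genes. Macrophage and B cell transcripts differed between the unstimulated groups. In DKO-labelled cells 7 of 9 tested macrophage markers and 2 of 9 B cell markers were called higher, as were 1.38% of all tested genes. The 10 macrophage markers summed to 164 to 183 normalized counts in unstimulated WT libraries, with C1qa and C1qc at 0 in both, and to 9276 and 1370.3 in DKO-labelled replicates 1 and 2, where all 10 were above 3 reads. In stimulated libraries the sum was 117 to 225, with Mrc1 and C1qa at 0 in all 4. The 9 B cell markers summed to 321 to 329 in unstimulated WT, 757 to 3296 in unstimulated DKO-labelled, 218 to 1023 in stimulated WT and 314 to 1511 in stimulated DKO-labelled libraries. Between unstimulated genotypes limma called 0 of 5 CD8/NK, 5 neutrophil and 5 dendritic cell markers tested, beside 4.73% of all tested genes. In DKO-labelled cells 4, 4 and 3 of them lay above WT without overlap, where 26.5% of all tested genes did, and 2 dendritic markers lay below. Of 6 genes of naive T cells, 4 lay above WT before stimulation and 6 after it, where 26.5% and 24.3% of tested genes did. Limma called 0 of the 6 in either state, beside 4.73% and 0.272% of all tested genes. With stimulation 8 of the 9 tested macrophage markers were called lower in DKO-labelled cells and 1 in WT, where 12% and 13.1% of all tested genes were. The part of all these transcripts in the receptor differences was not tested, be it between genotypes, with stimulation or in the interaction of both. In bulk RNA, fewer cells that express a receptor and less of its RNA per cell cannot be told apart.

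More of the receptors were called for stimulation than for genotype. In WT cells 5 of the 7 receptors were called, that is, they passed a limma adjusted p under 0.05 with more than 1.5-fold change: Il2ra and Il15ra rose, and Il2rg, Il7r and Il21r fell, where 23.3% of all tested genes were called, 10.2% higher and 13.1% lower. In DKO-labelled cells 5 of 7 were called as well, against 25% of all tested genes (13% higher and 12% lower), with Il2ra, Il15ra and Il2rb higher and Il7r and Il21r lower. Between genotypes none of the 7 was called by limma. In unstimulated cells, where limma called 4.73% of all tested genes, Il2ra and Il2rb reached an unadjusted p under 0.05, as did 22% of all. There edgeR called 0 members and 484 of all 15419 tested genes. DESeq2 called 2 members, Il2ra and Il2rb, and 1338 of all tested genes. In stimulated cells, where limma called 0.272% of all tested genes, Il2rg, Il7r and Il15ra reached an unadjusted p under 0.05, as did 13.7% of all. There edgeR called 0 members and 1 of all tested genes. DESeq2 called 1 member, Il7r, and 550 of all tested genes. Il2ra and Il2rb are also among the genes that the study picked from these same libraries, so their direction is not independent evidence. The genotype and the stimulation contrasts share libraries, and their values are given side by side for each receptor.

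**Figure D1:**
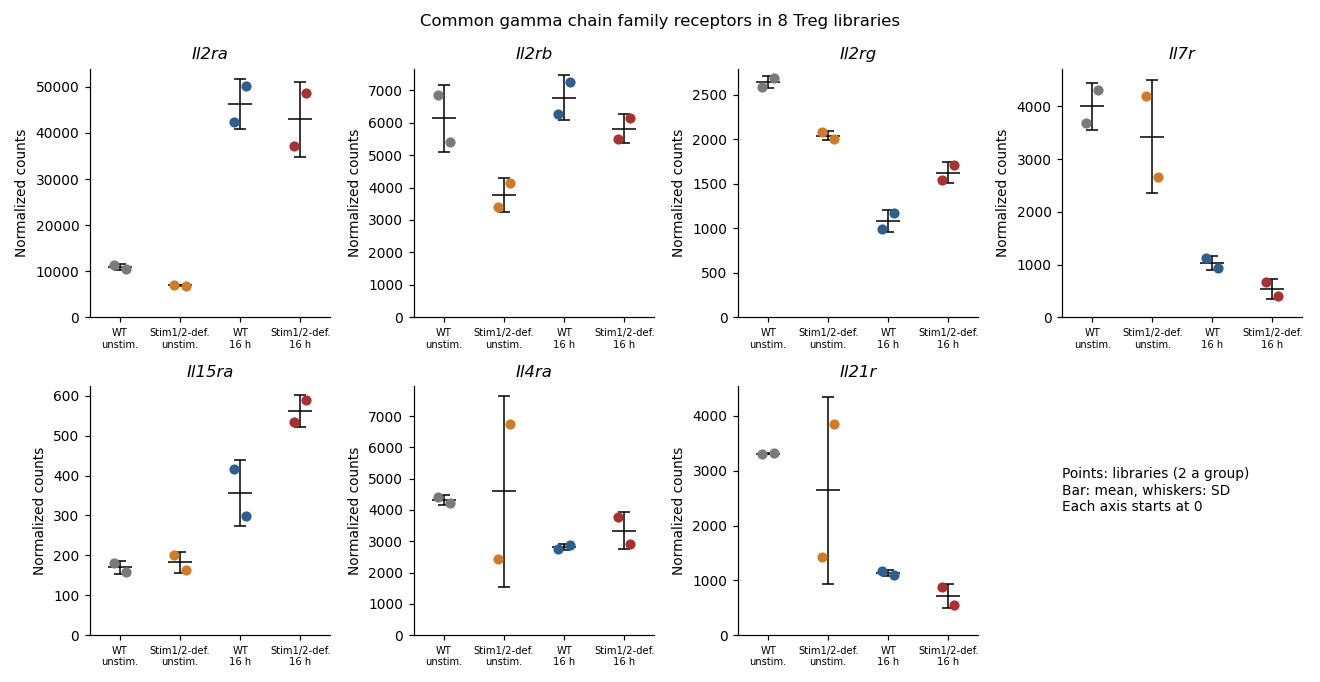
Normalized counts of the 7 receptors (vertical axes, each from 0) in the 4 groups of 2 libraries. Points are libraries, and bars are the mean with SD. Il2ra was at 37216 normalized counts or more in every stimulated library and at 11360.3 or less in every unstimulated library, and the unstimulated DKO-labelled libraries stood far apart from each other in Il4ra and Il21r.

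Il2ra, on chromosome 2 from 11642792 to 11693194 (GRCm38.p6, plus strand), encodes the alpha chain of the IL-2 receptor, which raises affinity for IL-2 and does not signal by itself. Unstimulated WT libraries had 11360.3 and 10408 normalized counts, and DKO-labelled libraries had 7021 and 6821. After stimulation WT libraries had 42365 and 50119, and DKO-labelled libraries had 37216 and 48629. The genotypes were apart without overlap before stimulation and overlapped after it. In WT cells the mean rose from 10884 ± 673 (SD, n = 2) to 46242 ± 5483 (SD, n = 2), a log2 fold change of 2.08 (SE 0.19, adjusted p = 0.000251 by limma) or 4.24-fold. DKO-labelled cells started from 6921 ± 142 (SD, n = 2) and reached 42922 ± 8070.3 (SD, n = 2), a log2 fold change of 2.62 (adjusted p = 0.000134 by limma) or 6.15-fold. Il2ra was called in each of the 18 fits run for WT and the 19 run for DKO-labelled cells. Between genotypes, Il2ra was 0.636-fold in unstimulated cells (95% interval 0.475 to 0.853), a log2 fold change of -0.65 that missed the threshold (adjusted p = 0.0810 by limma, DESeq2 adjusted p = 0.0372). In stimulated cells it was 0.923-fold (95% interval 0.689 to 1.24), a log2 fold change of -0.12 that became 0.0060 without WT replicate 2 and 0.078 without DKO-labelled replicate 1. The difference between both genotype contrasts was 0.54 on the log2 scale (SE 0.27, adjusted p = 0.625 by limma).

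Il2rb, on chromosome 15 from 78479256 to 78511621, encodes the beta chain (CD122) that IL-2 and IL-15 receptors share and that recruits STAT5. Its unstimulated libraries had 6868 and 5399 normalized counts in WT and 3389 and 4128 in DKO-labelled cells. Stimulated libraries had 6275 and 7256 in WT and 5505 and 6130.1 in DKO-labelled cells. DKO-labelled libraries lay below WT libraries at both times, and the gap was wider before stimulation. The unstimulated log2 fold change was -0.70 (SE 0.19, adjusted p = 0.0683 by limma), which is 0.614-fold with a 95% interval from 0.457 to 0.825. DESeq2 called it (adjusted p = 0.0283), and limma called it without DKO-labelled replicate 2 (-0.85, adjusted p = 0.0283). After stimulation the log2 fold change was -0.22 (adjusted p = 0.678 by limma). Stimulated and unstimulated WT libraries overlapped, at a log2 fold change of 0.15 (adjusted p = 0.611 by limma), which was -0.025 without unstimulated WT replicate 4. In DKO-labelled cells Il2rb rose by 0.64 on the log2 scale (adjusted p = 0.0352 by limma), or 1.55-fold. That call was lost when any library other than unstimulated DKO-labelled replicate 2 was left out (adjusted p from 0.0527 to 0.142), and the difference between the genotypes' stimulation effects was 0.49 (adjusted p = 0.652 by limma).

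Il2rg, on the X chromosome from 101264385 to 101268255 (minus strand), encodes the common gamma chain itself, which carries JAK3 to the receptors of the family. Unstimulated libraries had 2592 and 2688 normalized counts in WT and 2077 and 2005 in DKO-labelled cells. Stimulated libraries had 997 and 1173 in WT and 1544 and 1709 in DKO-labelled cells. DKO-labelled libraries were thus below WT before stimulation and above WT after it, with no overlap at either time, an opposite pattern that 5.37% of all tested genes showed. In WT cells Il2rg fell by 1.29 on the log2 scale (SE 0.17, adjusted p = 0.00154 by limma), to 0.410-fold, and it was called in each of the 18 fits. DKO-labelled cells had a log2 fold change of -0.33 (adjusted p = 0.189 by limma), a ratio of 0.796 with a 95% interval from 0.609 to 1.04, and a value of 0.061 with libraries rescaled to equal totals. Between genotypes the log2 fold change was -0.37 before stimulation (adjusted p = 0.244 by limma) and 0.59 after it (adjusted p = 0.161 by limma). The change from the first to the second, the interaction of genotype and stimulation, was 0.96 (SE 0.25, unadjusted p = 0.00291) and did not pass adjustment over all genes (adjusted p = 0.556 by limma). No member and 0 of all tested genes were called for the interaction by limma. Il2rg was the only member with an unadjusted p under 0.05 there, a level that 8.15% of tested genes reached, and edgeR and DESeq2 called 0 members.

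Il7r, on chromosome 15 from 9506159 to 9529941 (minus strand), encodes the IL-7 receptor alpha chain (CD127), which sustains naive and memory T cells. It had 3690 and 4310.4 normalized counts in unstimulated WT and 4194 and 2666 in unstimulated DKO-labelled libraries, which overlapped. After stimulation the counts were 1125 and 930.1 in WT and 676 and 396 in DKO-labelled libraries, all below every unstimulated library. Il7r fell by 1.96 on the log2 scale in WT cells (SE 0.29, adjusted p = 0.00212 by limma), which is 3.90-fold lower. In DKO-labelled cells it fell by 2.69 (adjusted p = 0.000408 by limma), which is 6.45-fold lower, and both calls held in every fit run. The genotypes did not overlap after stimulation, with a log2 fold change of -0.98 (adjusted p = 0.158 by limma) or 0.506-fold (95% interval 0.325 to 0.789). DESeq2 called that difference (adjusted p = 0.0499), and limma called it without stimulated DKO-labelled replicate 1 (-1.37, adjusted p = 0.0332), whereas without replicate 2 it was -0.60 (adjusted p = 0.832). In unstimulated cells the log2 fold change was -0.25 (adjusted p = 0.656 by limma), and 0.073 without DKO-labelled replicate 2.

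The promoters of 3 members are printed: Il2ra for the strongest rise of the family, Il7r for the strongest fall, and Il2rg for its interaction. That interaction had the lowest unadjusted p of the family by limma and was not called. Each runs 5′ to 3′ on the gene's own strand from 250 bases before to 50 bases after a RefSeq transcript start (GRCm38.p6). Capitals mark, on either strand, GGAAA (the core letters of NFAT sites), GGAAGT (an ETS factor motif) and TTCNNNGAA (the STAT motif).
Il2ra, chr2:11642542-11642841, plus strand: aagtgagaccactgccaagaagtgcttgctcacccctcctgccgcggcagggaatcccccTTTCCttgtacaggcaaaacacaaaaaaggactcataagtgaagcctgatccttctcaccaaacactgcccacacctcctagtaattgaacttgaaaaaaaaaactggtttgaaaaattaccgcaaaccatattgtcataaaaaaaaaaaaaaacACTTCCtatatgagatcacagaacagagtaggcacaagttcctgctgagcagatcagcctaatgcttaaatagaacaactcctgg
Il2rg, chrX:101268206-101268505, minus strand: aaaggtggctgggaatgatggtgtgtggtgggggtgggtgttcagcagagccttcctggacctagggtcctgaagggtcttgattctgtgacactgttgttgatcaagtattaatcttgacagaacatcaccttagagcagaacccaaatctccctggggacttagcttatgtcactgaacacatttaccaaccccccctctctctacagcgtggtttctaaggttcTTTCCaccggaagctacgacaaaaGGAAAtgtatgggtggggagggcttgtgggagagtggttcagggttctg
Il7r, chr15:9529827-9530126, minus strand: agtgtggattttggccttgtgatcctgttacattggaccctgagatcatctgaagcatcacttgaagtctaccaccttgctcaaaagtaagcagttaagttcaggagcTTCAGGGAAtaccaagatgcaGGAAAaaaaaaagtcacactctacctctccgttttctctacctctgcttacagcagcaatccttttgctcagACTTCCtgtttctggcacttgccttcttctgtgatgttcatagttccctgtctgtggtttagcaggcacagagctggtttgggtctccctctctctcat
Of the 7 members, 6 had an entry in the promoter table (all but Il2rb). GGAAA stood in the promoters of 5 of them, GGAAGT in those of 3 and TTCNNNGAA in that of 1, Il7r. Among 32851 mouse promoters of the same length, 61.3% held GGAAA, 23.8% held GGAAGT and 8.30% held TTCNNNGAA. The marked letters do not overlap one another in the printed promoters. A match is a description of letters and not a measured site.

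Il15ra lies next to Il2ra, on chromosome 2 from 11705172 to 11733985, 11977 bases away with 1 annotated gene (Gm39759) between them. It encodes the alpha chain of the IL-15 receptor, which binds IL-15 and can present it to neighbouring cells. It had 107 to 698 reads a library and was the lowest member per kilobase in all 4 groups. Unstimulated libraries had 181 and 158 normalized counts in WT and 200.3 and 164 in DKO-labelled cells, which overlapped. Stimulated libraries had 415 and 298 in WT and 534 and 589 in DKO-labelled cells, which did not. Il15ra rose by 1.05 on the log2 scale in WT cells (SE 0.26, adjusted p = 0.0167 by limma), or 2.07-fold, and by 1.62 in DKO-labelled cells (adjusted p = 0.00235 by limma), or 3.08-fold. The WT call was lost without unstimulated replicate 3 (adjusted p = 0.0711), unstimulated replicate 4 (adjusted p = 0.121) or stimulated replicate 1 (adjusted p = 0.139). Between genotypes the log2 fold change was 0.10 in unstimulated cells (adjusted p = 0.866 by limma), -0.043 without DKO-labelled replicate 1, and 0.67 in stimulated cells (adjusted p = 0.280 by limma).

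Il4ra and Il21r form the second neighbouring pair of the family, on chromosome 7 from 125552271 to 125579474 and from 125603252 to 125634397, with 23777 bases and no annotated gene between them. Il4ra encodes the alpha chain for IL-4, which it also lends to the IL-13 receptor, and Il21r encodes the IL-21 receptor, best known from follicular helper T cells and B cells. In normalized counts Il4ra was at 4421 and 4214 in unstimulated WT libraries and at 2438 and 6749 in DKO-labelled replicates 1 and 2, on both sides of the WT level. Il21r behaved alike, with 3304 and 3325 in WT and 1433 and 3846 in DKO-labelled replicates 1 and 2. Replicate 2 exceeded replicate 1 by 1.47 for Il4ra and 1.42 for Il21r on the log2 scale, differences larger than those of all but 8.71% and 9.32% of tested genes, whereas the unstimulated WT replicates differed by -0.069 and 0.0090. The genotype difference of both genes depended on which library was kept. The unstimulated log2 fold change of Il4ra was -0.090 (SE 0.37, adjusted p = 0.918 by limma), and it was -0.82 without replicate 2 (called, adjusted p = 0.0280) and 0.64 without replicate 1 (adjusted p = 0.0720). That of Il21r was -0.50 (SE 0.38, adjusted p = 0.490 by limma), and it was -1.21 without replicate 2 (called, adjusted p = 0.0237) and 0.21 without replicate 1 (adjusted p = 0.672). DKO-labelled replicate 1 is the library with the highest macrophage and B cell markers, and the part of those cells in these differences was not tested.

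After stimulation Il21r had 1172 and 1091 normalized counts in WT and 869.5 and 556 in DKO-labelled libraries, the latter below the former. Il21r fell by 1.55 on the log2 scale in WT cells (adjusted p = 0.0172 by limma), which is 2.93-fold lower, and by 1.75 in DKO-labelled cells (adjusted p = 0.00954 by limma), which is 3.38-fold lower. Leaving out any 1 of the 4 WT libraries ended the WT call (adjusted p from 0.0826 to 0.104). Without unstimulated DKO-labelled replicates 1 and 2 in turn the DKO-labelled value was -2.47 and -1.04, both called, and without stimulated replicate 2 it was -1.43 and not called (adjusted p = 0.0611). Il4ra had 2736 and 2869 in stimulated WT and 3761 and 2919 in stimulated DKO-labelled libraries. Its stimulation effect was not called in either genotype, at -0.62 in WT (adjusted p = 0.247 by limma) and -0.29 in DKO-labelled cells (adjusted p = 0.593 by limma). The WT value was called once the variable unstimulated DKO-labelled replicate 1 or 2 was out of the fit (adjusted p = 0.0113 and 0.0121). The DKO-labelled value was -1.03 without unstimulated replicate 1 (called, adjusted p = 0.00328) and 0.44 without replicate 2 (adjusted p = 0.117). Between stimulated genotypes the log2 fold change was -0.70 for Il21r (adjusted p = 0.466 by limma) and 0.24 for Il4ra (adjusted p = 0.832 by limma).

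**Figure D2:**
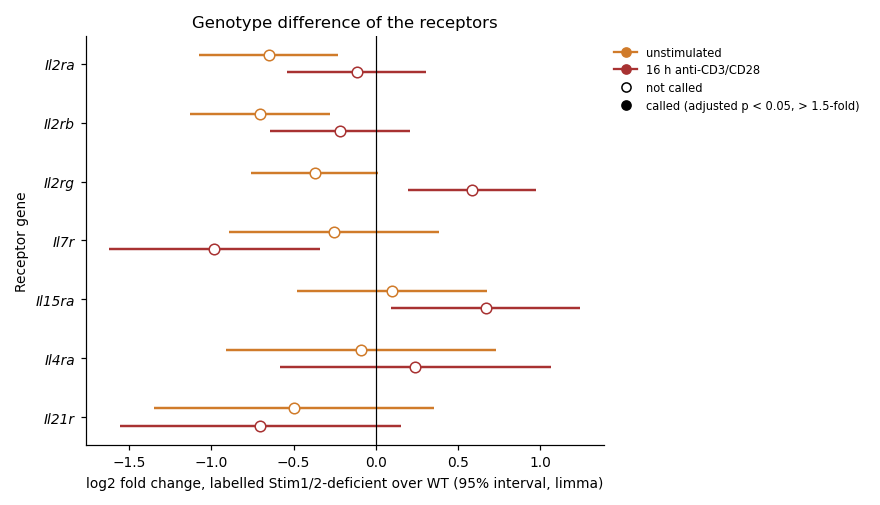
Log2 fold change of DKO-labelled over WT libraries for each receptor (horizontal axis) with its 95% interval from limma, in unstimulated and in stimulated cells, with 2 libraries against 2. Open points were not called. The intervals of Il2ra and Il2rb lie below 0 in unstimulated cells, and those of Il7r (below 0) and of Il2rg and Il15ra (above 0) exclude 0 in stimulated cells.

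Counted over the family, 3 receptors (Il2ra, Il2rb, Il2rg) had both unstimulated DKO-labelled libraries below both WT libraries and 0 had them above, where 27.1% of all tested genes lay below and 26.5% above without overlap. In stimulated cells 3 receptors lay below (Il2rb, Il7r, Il21r) and 3 above (Il2rg, Il15ra, Il4ra), where 23.1% and 24.3% of tested genes did. The median log2 fold change of the 7 members was -0.37 in unstimulated cells and -0.12 in stimulated cells, beside -0.0057 and 0.016 over all tested genes. Rescaling the libraries to equal totals or equal upper quartiles moved the median of all genes in the unstimulated contrast by 0.12 and 0.16. Equal totals moved the medians of the stimulation contrasts by 0.51 in WT and 0.38 in DKO-labelled cells. Under either rescaling no called receptor changed its direction. Il2rb gained a call in WT cells under equal totals (0.67, adjusted p = 0.0169 by limma). Under equal upper quartiles Il2rb lost its call in DKO-labelled cells, which left 4 receptors called there against 5.

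**Figure D3:**
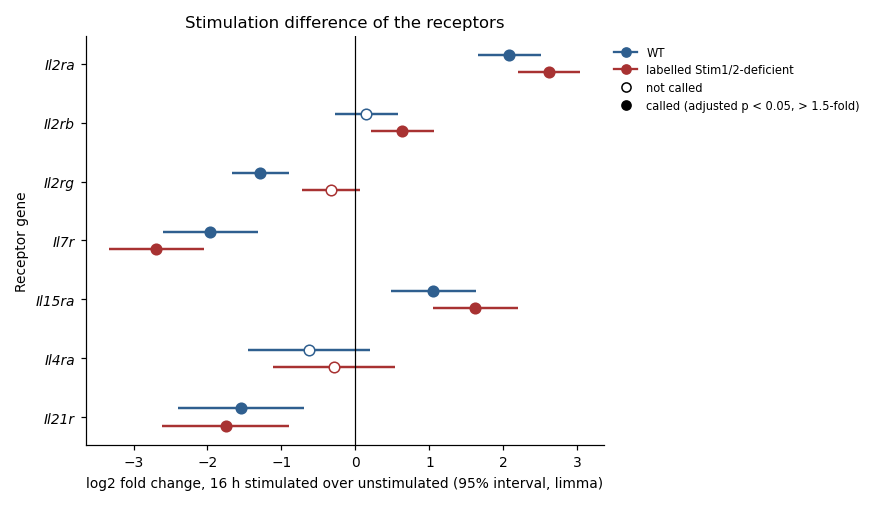
Log2 fold change of stimulated over unstimulated libraries for each receptor (horizontal axis) with its 95% interval from limma, in WT and in DKO-labelled cells, with 2 libraries against 2. Filled points were called. Il2ra and Il15ra lie above 0 and Il7r and Il21r below 0 in both genotypes, and Il2rg was called in WT cells alone, without the interaction passing adjustment.

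Per kilobase of exon, Il2rb and Il2ra led in unstimulated WT cells, at means of 2202 and 2138 normalized counts per kilobase with overlapping libraries. Il21r (1271), Il7r (1247), Il2rg (1106) and Il4ra (843) followed, of which Il21r and Il7r overlapped, and Il15ra came last at 41.2. In unstimulated DKO-labelled cells each of the first 5 receptors overlapped the next in the order, from Il2ra (1359) down to Il2rg (855), and Il15ra lay apart at 44.3. Stimulation set Il2ra apart, at 9083 in WT and 8431 in DKO-labelled cells, with Il2rb next at 2429 and 2089 and every other group mean at or below 681. Il2rg ranked below Il4ra in stimulated WT cells (455 against 547, no overlap) and overlapped it in DKO-labelled cells (681 against 652). The gene for the shared chain was therefore less abundant per kilobase than Il2ra and Il2rb in all 4 groups.

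**Figure D4:**
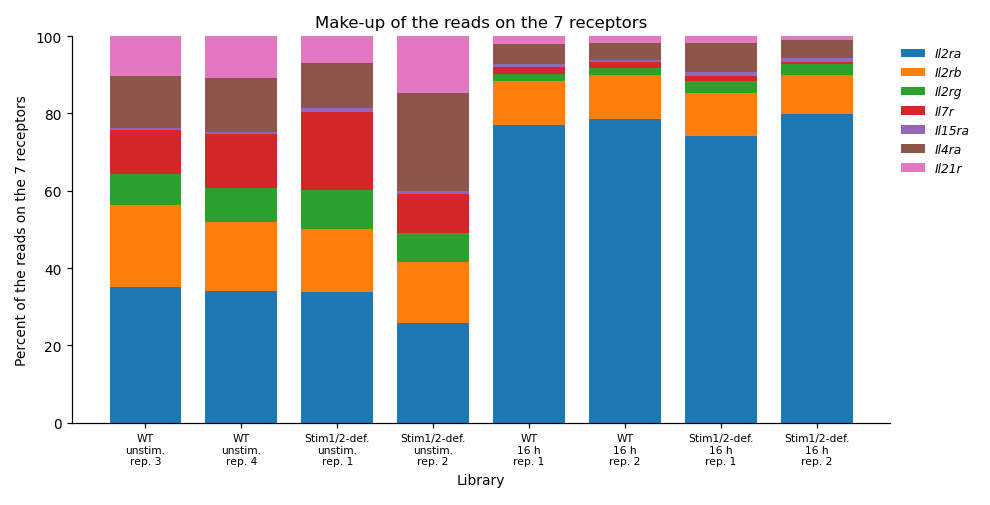
Percent of the reads on the 7 receptors that each receptor took (vertical axis, stacked to 100%) in each of the 8 libraries. Il2ra took 25.9% to 35.0% in unstimulated and 74.3% to 79.8% in stimulated libraries, in both genotypes.

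The balance of chains within a library moved in the same way. The normalized counts of Il2ra divided by those of Il2rg, not corrected for length and so compared only between libraries, were 4.38 and 3.87 in unstimulated WT and 3.38 and 3.40 in unstimulated DKO-labelled libraries. After stimulation they were 42.5 and 42.7 in WT and 24.1 and 28.5 in DKO-labelled libraries. The DKO-labelled ratios lay below the WT ratios at both times, and both genotypes shifted toward the alpha chain. Before stimulation the gap between the genotypes was smaller than that between the WT libraries. The genotype difference of this ratio was not tested. Il2ra per Il2rb was 1.65 and 1.93 in unstimulated WT, 2.07 and 1.65 in unstimulated DKO-labelled, 6.75 and 6.91 in stimulated WT and 6.76 and 7.93 in stimulated DKO-labelled libraries. Unlike the ratio to the gamma chain, that to the beta chain overlapped between the genotypes before stimulation and after it. Il7r, which took 10.1% to 20.2% of receptor reads in unstimulated libraries, took 0.650% to 2.04% after stimulation.

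Transcripts of the cytokines themselves were scarce in unstimulated cells. Of 6 ligand genes 5 were tested, and limma called 0 between genotypes in either state, with 0 (unstimulated) and 1 (stimulated) at an unadjusted p under 0.05. Of all tested genes 4.73% and 0.272% were called by limma, and 22% and 13.7% had an unadjusted p under 0.05. Between stimulated genotypes edgeR called 1 and DESeq2 called 550 of all tested genes. Of the ligand genes edgeR called 0 there and DESeq2 called 1 lower. With stimulation 3 ligand genes were called higher in WT, where 10.2% of all tested genes were, and 2 in DKO-labelled cells, where 13% were. Il2, the growth factor that activated conventional T cells make, had 17.3 and 17.7 normalized counts in unstimulated and 1469.9 and 771 in stimulated WT libraries, a log2 fold change of 5.85 (adjusted p = 0.00250 by limma). In DKO-labelled libraries it went from 19.9 and 4.01 to 2248 and 266, a log2 fold change of 6.24 (adjusted p = 0.00144 by limma). The genotype difference in stimulated cells was -0.46 (adjusted p = 0.874 by limma), with the DKO-labelled libraries on both sides of WT. Il4, the ligand of the Il4ra chain, rose by 3.93 in WT and 3.25 in DKO-labelled cells on the log2 scale (adjusted p = 0.00228 and 0.00410 by limma). Il9 had 182 and 53.9 normalized counts in stimulated WT libraries and at most 3 reads in each unstimulated one, so no fold is given, and its call was lost without unstimulated WT replicate 4 or stimulated WT replicate 1 (highest adjusted p = 0.0923). Of the 4 partner chains of the family's receptors 3 were tested, and limma called 0 between genotypes. In each state 1 had an unadjusted p under 0.05, as did 22% (unstimulated) and 13.7% (stimulated) of all tested genes. DESeq2 called 1 lower between stimulated genotypes, as did limma without DKO-labelled replicate 1, and edgeR called 0. Il9r, the chain specific for IL-9, had 212 and 164 normalized counts in unstimulated WT, 96.5 and 16.0 in unstimulated DKO-labelled, 32.7 and 15.2 in stimulated WT and 6.35 and 0 in stimulated DKO-labelled libraries. Its fall with stimulation was called in DKO-labelled cells (adjusted p = 0.0187 by limma) and missed in WT (adjusted p = 0.0541 by limma). The call was lost without unstimulated DKO-labelled replicate 1 or stimulated DKO-labelled replicate 2 (highest adjusted p = 0.105).

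Of the 9 JAK and STAT genes, all tested, limma, edgeR and DESeq2 called 0 between genotypes in unstimulated or stimulated cells, at medians of -0.13 and 0.37 on the log2 scale. Of all tested genes limma called 4.73% and 0.272% in these contrasts, edgeR called 484 and 1, and DESeq2 called 1338 and 550. An unadjusted p under 0.05 by limma was reached by 1 and 2 of the 9, and by 22% and 13.7% of all tested genes. Leaving out single libraries changed what was called. In unstimulated cells the calls were lower without DKO-labelled replicate 2 and higher without replicate 1, so their direction depended on the library kept. In stimulated cells a higher call arose without DKO-labelled replicate 1. With stimulation, Jak1, the kinase that binds the cytokine-specific chains, fell by 1.37 in WT and by 1.31 in DKO-labelled cells (adjusted p = 0.00357 and 0.00378 by limma). Jak3, the partner kinase of the gamma chain, was at a log2 fold change of 0.046 in WT and 0.55 in DKO-labelled cells (adjusted p = 0.914 and 0.146 by limma). Jak2 fell by 2.18 in WT (adjusted p = 0.00518 by limma), a call lost without unstimulated WT replicate 4 or stimulated WT replicate 2.

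Among 10 genes known as targets of STAT5 and other STATs, 2 were called lower (Pim1, Bcl2l1) and 1 higher (Bcl2) in unstimulated DKO-labelled cells. There 3.35% of all tested genes were called lower and 1.38% higher. Bcl2 alone was called between genotypes after stimulation, where 0.272% of all tested genes were. Bcl2l1, which encodes the survival protein BCL-XL, had 851 and 833 normalized counts in unstimulated WT and 197 and 333 in DKO-labelled libraries, a log2 fold change of -1.71 (SE 0.26, adjusted p = 0.0110 by limma). Bcl2, its relative, was higher, with 3345 and 3254 in WT and 7570 and 6538 in DKO-labelled libraries, a log2 fold change of 1.09 (adjusted p = 0.0142 by limma) and of 1.11 after stimulation (adjusted p = 0.0432 by limma). Pim1, a kinase gene downstream of STAT5, had 2810.1 and 2604 in WT and 857 and 1731 in DKO-labelled libraries, a log2 fold change of -1.15 (adjusted p = 0.0498 by limma). Cish and Socs2, feedback genes that STAT5 induces, had log2 fold changes of -0.64 and -0.90 that missed the threshold (adjusted p = 0.113 and 0.0856 by limma). The unstimulated calls of Bcl2 and Bcl2l1 held in 15 and 16 of 18 fits and were lost without either unstimulated WT replicate (highest adjusted p = 0.189 and 0.177 over all fits), and that of Pim1 held in 5 of 18 fits. The Bcl2 call in stimulated cells held in 9 of 19 fits. By other tools the unstimulated count of targets was 2 (edgeR) and 4 (DESeq2), and it ranged from 0 to 4 when single libraries were left out. Of all tested genes edgeR called 484 and DESeq2 called 1338 between unstimulated genotypes. With stimulation, 7 of the 10 targets were called in each genotype, where 23.3% of all tested genes were called in WT and 25% in DKO-labelled cells. Socs3, a feedback inhibitor of STAT3 signalling, fell in both, at log2 fold changes of -1.85 in WT and -1.90 in DKO-labelled cells (adjusted p = 0.00260 and 0.00178 by limma), and Pim1 fell by 1.58 in WT (adjusted p = 0.00484 by limma). Cish, Socs1, Socs2, Pim2 and Myc rose in both, although the WT calls of Cish and Pim2 were lost without any 1 of the 4 WT libraries (highest adjusted p = 0.133 and 0.182). Socs1, an inhibitor of JAK kinases, rose by 3.07 in WT and 3.23 in DKO-labelled cells on the log2 scale (adjusted p = 0.000875 and 0.000571 by limma). Bcl2l1 rose by 1.58 in DKO-labelled cells (adjusted p = 0.00282 by limma) and was not called in WT (0.19, adjusted p = 0.630 by limma). Between stimulated genotypes Bcl2l1 was at -0.33 (adjusted p = 0.641 by limma).

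Of 14 genes for transcription factors that are known to control one or another receptor gene, limma called 1 lower in unstimulated DKO-labelled cells. There 3.35% of all tested genes were called lower. In stimulated cells limma called 0 of the 14, beside 0.272% of all tested genes. An unadjusted p under 0.05 was reached by 4 of the 14 there, and by 13.7% of all tested genes. In unstimulated cells edgeR called 0 and DESeq2 called 4, 3 lower and 1 higher, and the count ranged from 0 to 4 without single libraries. In stimulated cells edgeR called 0 and DESeq2 called 1 higher. Of all tested genes edgeR called 484 in unstimulated and 1 in stimulated cells, and DESeq2 called 1338 and 550. The gene called by limma was Nfatc1, an NFAT factor that calcium and calcineurin activate, with 2499 and 2380 against 1418 and 1388 normalized counts (log2 fold change -0.80, adjusted p = 0.0480 by limma, called in 6 of 18 fits). Foxp3, which sustains Il2ra and holds down Il7r in Treg cells, had 10001 and 8159 in WT and 4947 and 4258 in DKO-labelled libraries, a log2 fold change of -0.98 that missed the threshold (adjusted p = 0.0591 by limma). Foxo1, an activator of Il7r, fell with stimulation by 1.67 in WT and by 1.33 in DKO-labelled cells (adjusted p = 0.00364 and 0.00875 by limma). Whether its level bears on that of Il7r was not tested. Between genotypes Foxo1 was not called, at -0.083 before stimulation and 0.26 after it. Tbx21, which encodes T-bet, a factor linked to Il2rb, rose by 3.55 in WT and 4.18 in DKO-labelled cells on the log2 scale (adjusted p = 0.00425 and 0.00177 by limma).

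For comparison, 18 receptor genes of other cytokine families were all tested, and limma called 3 of them lower in unstimulated DKO-labelled cells, where 3.35% of all tested genes were. In that contrast edgeR called 2 lower and DESeq2 called 5 lower. Of all tested genes they called 484 and 1338 in either direction. Il1rl1, the IL-33 receptor ST2 of tissue Treg cells, had 1694 and 1746 normalized counts in WT and 138 and 50.8 in DKO-labelled libraries, a log2 fold change of -4.34 (adjusted p = 0.0179 by limma). Il1r2, the decoy receptor for IL-1, had 1223 and 1219 against 118 and 61.4, a log2 fold change of -3.82 (adjusted p = 0.00880 by limma). Tgfbr1, a chain of the TGF-beta receptor, was at -0.85 (adjusted p = 0.0447 by limma) and was called in 7 of 18 fits. The calls of Il1rl1 and Il1r2 were lost without either unstimulated WT replicate (highest adjusted p = 0.213 and 0.161). In the same contrast the lowest bound of any 95% interval in the gamma chain family was -1.35, that of Il21r. The median of the 18 was -0.51 in unstimulated cells and 0.0018 in stimulated cells. Limma called 0 of them between stimulated genotypes, where 0.272% of all tested genes were called. There 8 of the 18 had an unadjusted p under 0.05 by limma, as did 13.7% of all tested genes. By edgeR 0 of the 18 were called, by DESeq2 5 and with the replicate block 3. Of all tested genes these fits called 1, 550 and 88. Over fits that each lacked 1 library, the unstimulated count ranged from 0 to 8.

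**Figure D5:**
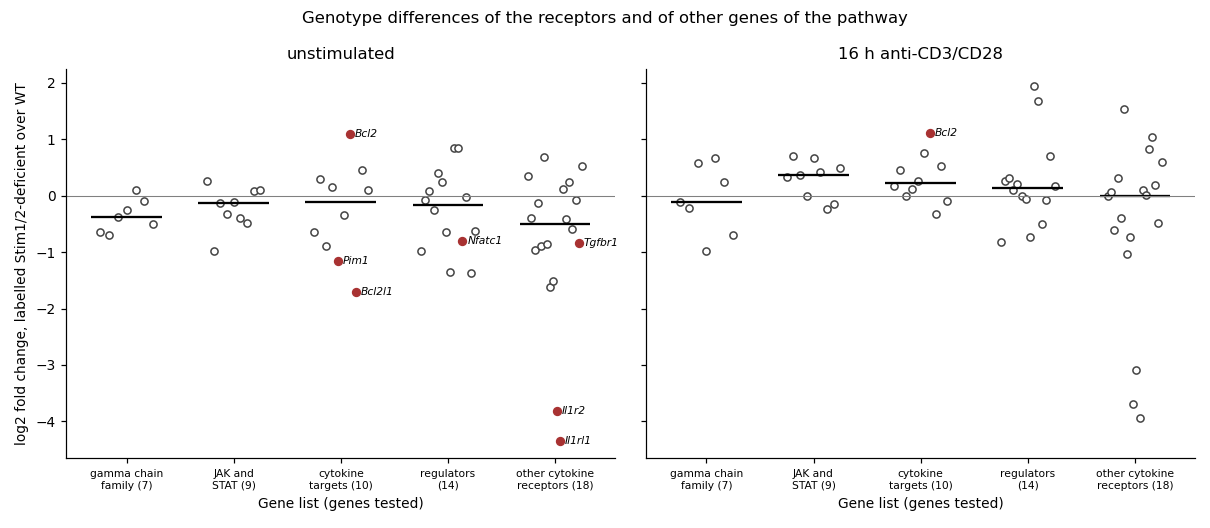
Log2 fold change of DKO-labelled over WT libraries (vertical axis) for the genes of 5 lists, in unstimulated (left) and stimulated cells (right). Points are genes, black lines are list medians, and red, named points were called. The receptors of the gamma chain family spread between -0.70 and 0.10 in unstimulated cells, and Il1r2 and Il1rl1 stand at -3.82 and -4.34.

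The likeness of each receptor to other genes was measured as Pearson's r over the 8 libraries, on log2 values, among 9140 other genes whose mean reached 100 normalized counts. The libraries of each state share a lane, and r is given as a description. Il2ra was most like Bax, a gene of the apoptosis pathway (r = 0.998), and Ndufab1, a mitochondrial gene (0.995), and 967 genes had r above 0.9 with it. Il4ra, the least typical member, had 60 such genes, led by Hif1an (0.993) and Rybp (0.970). Il21r was most like Cd28, the costimulatory receptor (0.995), and Cenpl (0.991). For Il2rb the closest genes were Ndufb11 (0.985) and Ssx2ip (0.984), and for Il2rg Capn3 (0.975) and Nfkbiz (0.971). Il7r was closest to Fosb (0.985) and Terf1 (0.984), and Il15ra to Zfp329 (0.989) and Gm42047 (0.989). Within the family, Il7r ran opposite to Il15ra (r = -0.94) and to Il2ra (-0.90). The neighbouring pairs had r of 0.88 for Il2ra with Il15ra and 0.73 for Il4ra with Il21r.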

How the data were processed

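Treg RNA was sequenced in 8 libraries, 2 for each genotype and stimulation, and samples were grouped by their labels. The deposited table holds a signal for each gene, namely reads scaled by the authors with a single size factor for every library and rounded to 2 decimals. Dividing by the value of 1 read gave whole numbers, within 0.05 reads, for 99.998% to 100% of all values, those at 0 included. The sources disagree on the steps before. The methods name Bowtie, NCBIM37, unique reads, removal of duplicates, HTSeq and DESeq2, whereas the submitters' processing notes name bcl2fastq 1.8.4, STAR 2.7, mm10 and DESeq2. Of 52459 symbols, 28801 occur in GENCODE vM1 (NCBIM37) and 35095 in RefSeq on GRCm38. Positions and promoters are from RefSeq GRCm38.p6 by symbol, and exon lengths from GENCODE vM1.

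Values were tested as log2(value + 1) with limma 3.58.1 (lmFit, eBayes with trend) in R 4.3.3, in 1 model of the 4 groups, for genes averaging 10 or more. Tests were 2-sided, with Benjamini-Hochberg adjustment over all genes within a contrast, and a gene was called at adjusted p below 0.05 if it changed over 1.5-fold. Fold changes of low genes are understated by the pseudocount. Named genes were the 7 members, the 2 genes most like each by Pearson's r, and genes of the pathway lists that were called between genotypes or whose role is described beside a member. Alternatives were pseudocounts of 0.1 and 5, no filter, a mean of at least 100, equal totals, equal upper quartiles, edgeR 4.0.16 and DESeq2 1.42.0 on the recovered reads, the 4 libraries of a contrast, a replicate block, and each library left out. Their use for the pathway lists was added after seeing the data. Scripts were tested on simulated data. The members, lists and tests were chosen with earlier results of these data known. One gene of the pathway lists is not reported here by name.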

Additional observations from a re-analysis of the deposited data

Results flagged for a closer look

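The gamma chain gene Il2rg met 1 criterion for a closer look: its genotype effect differed in direction between unstimulated and stimulated cells. Every DKO-labelled library lay below every WT library before stimulation and above it after stimulation, a pattern of non-overlapping opposite directions that 5.37% of all tested genes showed. The difference between both genotype contrasts was 0.96 on the log2 scale (SE 0.25). It had an unadjusted p of 0.00291 and an adjusted p of 0.556 (limma), so the interaction did not pass adjustment over all genes. Over the 17 fits run, the value ranged from 0.80 to 1.07 and the adjusted p from 0.0927 to 0.999, with no call. Groups of 2 libraries were too small to be screened for single outlying samples.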

How the results depend on the processing

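Of 602 alternative values for single receptors, 555 kept their direction and their side of the threshold, 12 gained a call, 18 lost one and 17 changed sign. DESeq2 called 2 receptors (against 0) between unstimulated genotypes and 1 (against 0) between stimulated genotypes. Of all tested genes it called 1338 (against 730) and 550 (against 42) there. When single libraries were left out, the number of receptors called ranged from 0 to 3 and from 0 to 1 in these contrasts, and from 3 to 6 in WT and 3 to 5 in DKO-labelled cells with stimulation. The unstimulated genotype value of Il4ra became 0.031 with equal totals, 0.073 with equal upper quartiles, 0.076 with edgeR and 0.10 with DESeq2. With equal totals the stimulation value in DKO-labelled cells became 0.061 for Il2rg and 0.098 for Il4ra. Leaving out 1 library gave ranges across 0 between unstimulated genotypes for Il7r (-0.58 to 0.073), Il15ra (-0.043 to 0.24), Il4ra (-0.82 to 0.64) and Il21r (-1.21 to 0.21), and between stimulated genotypes for Il2ra (-0.31 to 0.078). The same held for Il2rb with stimulation in WT (-0.025 to 0.32), for Il4ra in DKO-labelled cells (-1.03 to 0.44), and for the interaction of Il4ra (-0.40 to 1.07) and Il21r (-0.92 to 0.51). Apart from the library or scaling itself, the cause was not tested. The labels do not say that a replicate number marks a shared batch, and whether it does was not settled: deviations of same-numbered libraries correlated at 0.167 (stimulated genotypes) and 0.257 (DKO-labelled, before and after stimulation), with 2 pairs each, and replicate 1 exceeded replicate 2 in summed B cell and CD8/NK markers in all 3 groups with these numbers. With a replicate block the receptors called stayed at 0 and 5, and the count over all genes between stimulated genotypes went from 42 to 88. Unstimulated WT replicates have other numbers, so no block could be fitted there. Over all genes, the counts called ranged from 8 to 1338 between unstimulated genotypes (730 as reported), from 0 to 762 between stimulated genotypes (42), from 971 to 5232 with stimulation in WT (3593), from 1752 to 4868 in DKO-labelled cells (3852), and from 0 to 196 for the interaction (0), the last with 50 by DESeq2. With 2 libraries a group, the SE of a genotype difference was 0.17 (Il2rg) to 0.38 (Il21r) on the log2 scale, which limits what could be called.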

Other observations

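Some JAK and STAT genes differed between the unstimulated DKO-labelled libraries by about as much as Il4ra and Il21r, and others did not. Replicate 2 exceeded replicate 1 by 1.87 on the log2 scale for Stat5a, 1.54 for Jak2, 1.47 for Stat5b and 1.39 for Stat3, where the median absolute difference over all tested genes was 0.46. The difference between the same libraries was 0.76 for Jak1, -0.43 for Jak3, -0.55 for Tyk2, -0.058 for Stat6, -0.042 for Il2ra and -0.051 for Il2rg. In the unstimulated WT libraries the difference was 0.11 for Stat5a and 0.14 for Jak2.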
